A study of Mus musculus with 6 samples.

Results

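The 46 genes described here are interferon-stimulated genes: antiviral effector genes, interferon-induced GTPase genes, sensors of foreign RNA and DNA, and the Ifi200 genes, without the IRF and STAT transcription factors. They were chosen by name, and all 46 were found by Ensembl identifier among the 22271 genes of the deposited read counts. Total RNA was sequenced from C57BL/6JRj mouse bone marrow progenitors isolated by flow cytometry, in 3 libraries labelled CD27 high MODP and 3 labelled CD27 low MOP. The series' title places a progenitor of macrophages and osteoclasts downstream of a progenitor that these cells share with dendritic cells, and the design compares MODP with MOP. The sample titles carry the number WT1 for replicates 1 and 3 of each group and WT2 for replicate 2, while the columns of the count table call the replicates WT1, WT2 and WT3. What these numbers stand for, the age of the mice, how many mice went into a library and whether replicates were separate mice are not stated in any source used here. The p-values therefore cover the variation among these 6 libraries, and some of it may be technical.

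Interferons are secreted proteins that warn cells of infection. They bind surface receptors coupled to JAK kinases, which activate STAT proteins. After type I interferon, a complex that holds IRF9 switches on genes that carry an interferon-stimulated response element, whereas interferon gamma acts mainly through another element, the gamma-activated one. The induced proteins block viral entry, degrade or modify viral RNA, halt translation or attack membranes around parasites. Stem cells and progenitors are known to hold part of this set at a steady level without infection.

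Cd27, which encodes the receptor used for the sort, followed the labels, with 35.4, 38.9 and 38.7 CPM in the MODP libraries and 4.57, 3.52 and 3.64 CPM in the MOP libraries. CPM are counts per 1000000 reads after edgeR's TMM scaling, given for replicates 1, 2 and 3 in that order throughout. Library totals ran from 10701425 to 15892640 counts, so 1 CPM stood for 10.6 to 15.6 reads. Of the marker lists, 6 of 6 early progenitor genes, Cd27 among them, were lower in MOP and 6 of 7 monocyte and macrophage genes were higher by edgeR's quasi-likelihood test. Markers of cells that a progenitor sort should not hold were also read: CPM summed over 8 mature neutrophil genes was 2044.6 to 15777.0 in MODP and 2628.3 to 11020.0 in MOP, and over 7 B lineage genes 42.8 to 129 and 38.4 to 77.7.

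The interferon-stimulated genes did not move as a block between the populations. The filter on low counts passed 45 members, of which 8 rose from MODP to MOP, 4 fell and 33 missed an adjusted p of 0.05 in edgeR's test. Over all 12850 genes tested, the test called 16.3% higher in MOP and 14.9% lower, 31.2% in either direction, so the share of members called, 26.7%, lay near the background. Their median log2 fold change, MOP minus MODP, was 0.04, against -0.01 over all genes, with a range from -1.54 to 1.81. The libraries of both groups did not overlap for 9 members with MOP above and 4 with MOP below, where 23.8% of all genes did not overlap in each direction. Without MODP replicate 2, edgeR called 14 members higher, with Usp18, Zbp1, Isg20, Rsad2, Gbp2 and Parp14 added, and 2 lower. That fit called 36.7% of all genes, against 31.2% with all libraries. Without any other single library edgeR called 7 members higher and 1 to 3 lower, and 17.6% to 22.5% of all genes. In a fit paired by replicate number, described further on, 13 were called higher and 8 lower, where 41.0% of all genes were called. The higher genes of the unpaired fit were Samhd1, Cmpk2, Ifitm1, Ifitm3, Mx1, Trim30a, Ifi204 and Ifi211, and the lower ones Bst2, Ifi47, Igtp and Dtx3l. The Ifit and Oas genes, Isg15 and Rsad2 varied between libraries in another way: each had its highest value within both groups in replicate 2.

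**Figure D1:**
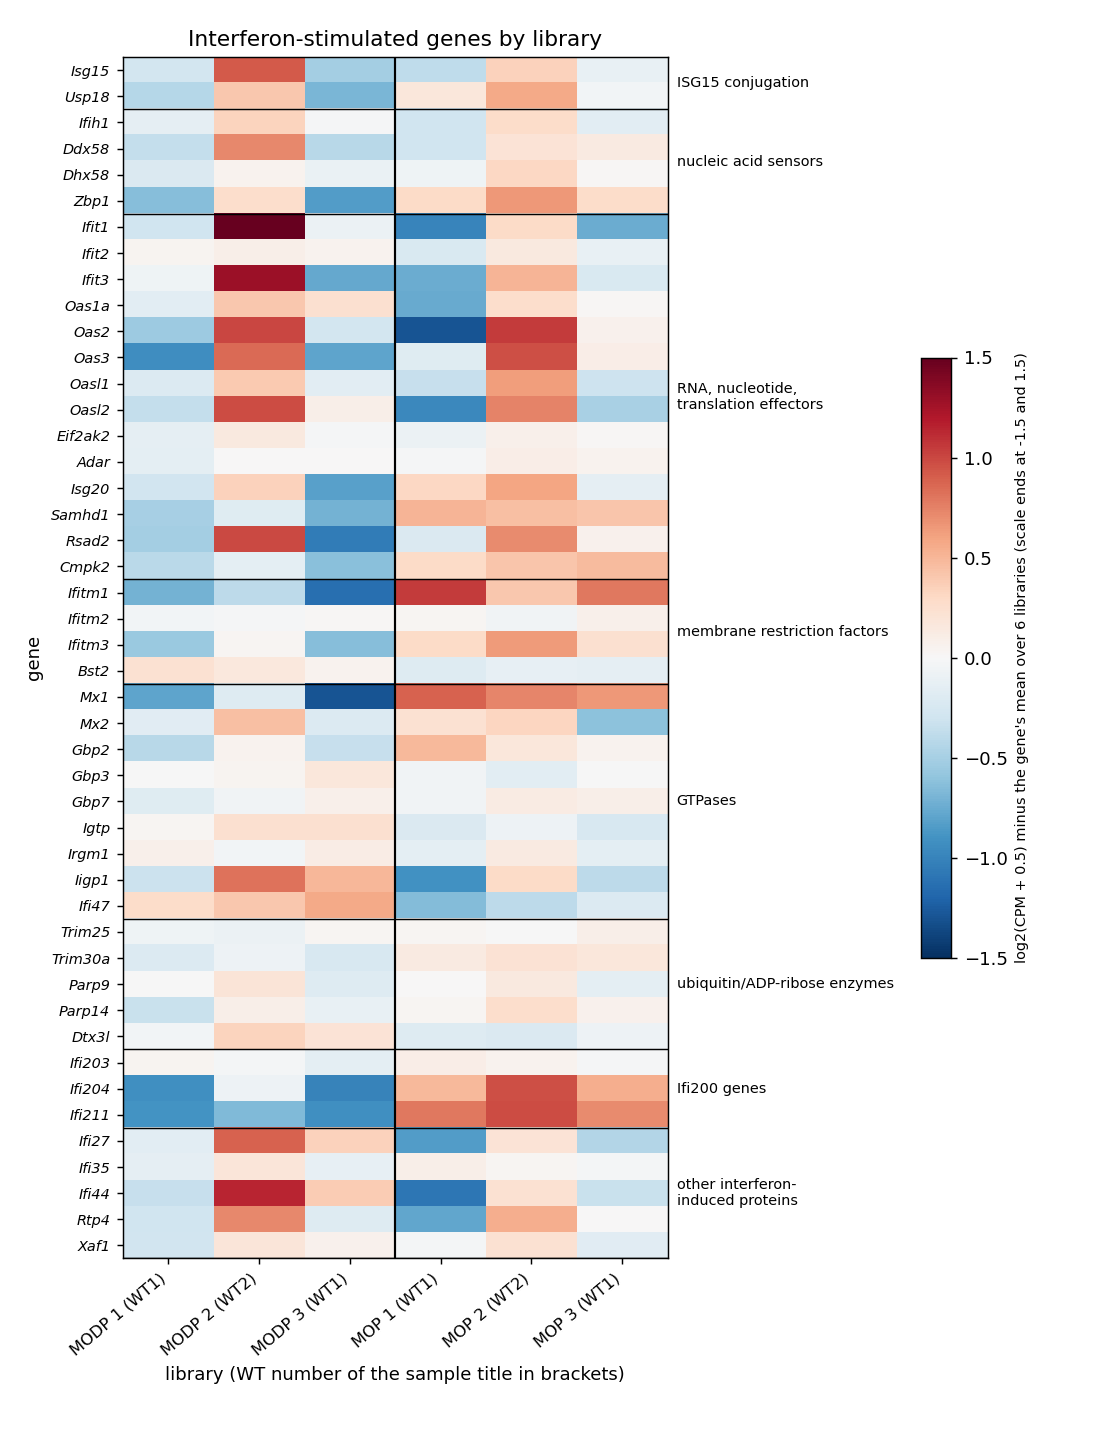
Each row is a gene and each column a library; the colour gives log2(CPM + 0.5) minus the gene's mean over the 6 libraries, with the WT number of the sample title in brackets. Samhd1, Cmpk2, Ifitm1, Mx1, Ifi204 and Ifi211 are red in the MOP columns, Ifi47 is red in the MODP columns, and Isg15, Ifit1, Oas2, Oas3, Oasl2 and Rsad2 are red in replicate 2 of each group.

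Stretches of promoter sequence show the element that much of this gene set shares and that some of its members lack in this window. RefSeq's promoter windows (GRCm38.p6, 250 bases before to 50 after each start) matched 34 of the 46 members by symbol. The core of the interferon-stimulated response element was searched as GAAA, any 2 bases and GAAA, or on the other strand TTTC, any 2 bases and TTTC, with overlaps allowed; it was found for 20 of the 34 members (58.8%), against 3.99% of the 27025 genes with a window. The palindromic letters TTCNNNGAA, the core of the gamma-activated element, were found for 11 members (32.4%), against 9.55% of all genes. Below are the 150 bases before the start of 7 genes picked after their values were seen: Ifit1, Oas3 and Isg15 for the replicate 2 pattern, Ifi211 and Samhd1 as higher in MOP, Bst2 and Igtp as lower. Capitals mark the searched core, and the strand is that of the gene.
Ifit1, chr19:34640739-34640888, plus strand: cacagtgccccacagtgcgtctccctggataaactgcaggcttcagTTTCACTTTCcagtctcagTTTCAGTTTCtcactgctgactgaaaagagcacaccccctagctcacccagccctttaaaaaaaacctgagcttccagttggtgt
Oas3, chr5:120777660-120777809, minus strand: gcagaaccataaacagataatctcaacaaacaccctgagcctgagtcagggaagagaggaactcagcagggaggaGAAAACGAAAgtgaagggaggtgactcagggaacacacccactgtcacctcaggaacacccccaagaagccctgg
Isg15, chr4:156200819-156200968, minus strand: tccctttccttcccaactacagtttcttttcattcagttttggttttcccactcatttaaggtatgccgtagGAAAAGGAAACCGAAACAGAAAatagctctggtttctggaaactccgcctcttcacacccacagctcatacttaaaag
Ifi211, chr1:173913047-173913196, minus strand: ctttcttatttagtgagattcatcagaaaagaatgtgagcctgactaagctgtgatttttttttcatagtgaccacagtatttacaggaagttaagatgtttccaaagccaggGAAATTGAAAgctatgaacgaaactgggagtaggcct
Samhd1, chr2:157135097-157135246, minus strand: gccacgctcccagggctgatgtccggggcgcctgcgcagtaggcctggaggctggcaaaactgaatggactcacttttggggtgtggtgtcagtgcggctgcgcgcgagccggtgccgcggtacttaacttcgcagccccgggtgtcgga
Bst2, chr8:71537473-71537622, minus strand: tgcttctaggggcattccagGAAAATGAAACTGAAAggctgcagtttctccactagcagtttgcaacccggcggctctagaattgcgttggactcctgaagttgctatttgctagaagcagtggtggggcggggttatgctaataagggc
Igtp, chr11:58199406-58199555, plus strand: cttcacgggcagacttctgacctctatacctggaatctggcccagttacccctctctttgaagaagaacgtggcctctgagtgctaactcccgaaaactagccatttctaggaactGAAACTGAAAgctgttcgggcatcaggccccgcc
Isg15 holds 3 overlapping cores and Ifit1 holds 2, and none lies in the window of Samhd1. Of the 8 members higher in MOP, 6 had a window and 3 of these held the core; of the 4 lower members 2 did, and of the 5 members higher in WT2, described below, 4 did. A match is a run of letters and was not tested as a binding site.

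Effectors that act on RNA, nucleotides and translation gave 2 calls between the populations among 13 tested genes, both toward MOP. Of all genes, 31.2% were called. Samhd1, which encodes an enzyme that breaks down deoxynucleotides and so starves viral reverse transcription, had 162, 201 and 140 CPM in MODP against 326, 314 and 306 CPM in MOP. The lowest MOP library was above the highest MODP library, and Samhd1 was 1.88-fold higher in MOP (log2 0.91 ± 0.12, SE; edgeR adjusted p = 0.0023). Cmpk2, a mitochondrial nucleotide kinase, read 36.8, 44.2 and 31.6 CPM in MODP and 60.0, 65.2 and 68.1 CPM in MOP, again without overlap (log2 0.78 ± 0.12, SE; edgeR adjusted p = 0.0024). Rsad2, which encodes viperin and is a neighbour of Cmpk2 in the genome, did not pass: its values were 5.34, 16.0 and 3.51 CPM in MODP and 6.63, 13.1 and 8.19 CPM in MOP (edgeR adjusted p = 0.85). Adar, an RNA-editing enzyme, and Eif2ak2, the kinase PKR that halts translation, were steady at 117 to 139 CPM and 53.1 to 65.1 CPM over the 6 libraries, with log2 fold changes of 0.09 and 0.00.

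In the same role stand the Ifit genes, whose proteins bind viral RNA, and the Oas genes. Several Oas proteins make the 2-5A messenger that activates RNase L. The Ifit and Oas genes were not called in the unpaired fit. Their log2 fold changes, MOP minus MODP, were -1.54 for Ifit1, -0.12 for Ifit2, -0.29 for Oas1a, 0.03 for Oas2, 0.47 for Oas3, 0.04 for Oasl1 and -0.39 for Oasl2, with edgeR adjusted p from 0.25 to 0.98. Isg20, an RNA exonuclease, stood at 0.50 (edgeR adjusted p = 0.32). The fit paired by replicate number called 4 of these genes, where it called 41.0% of all genes. Ifit1 and Oasl2 were lower in MOP (edgeR adjusted p = 0.0062 and 0.026), and Oas3 and Isg20 higher (edgeR adjusted p = 0.034 and 0.016). Ifit3 was the 1 member that did not pass the filter, with 8, 26 and 3 reads in MODP and 3, 19 and 7 in MOP. Of the 31-base words of its longest transcript, 61.8% also occur in Ifit3b, and 68.7% of those of Oas1a occur in Oas1g, so both are uncertain.

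Membrane restriction factors split. Ifitm1 and Ifitm3 encode small membrane proteins that hinder the fusion of viruses with the cell, and both were higher in MOP. Ifitm1 read 20.9, 26.2 and 15.5 CPM in MODP and 72.3, 45.8 and 60.0 CPM in MOP, 2.85-fold higher (log2 1.51 ± 0.25, SE; edgeR adjusted p = 0.0069). The groups did not overlap, although MOP replicate 2 was the lowest of its group and MODP replicate 2 the highest of the other. Ifitm3 read 50.5, 75.8 and 47.6 CPM in MODP and 90.8, 116 and 87.7 CPM in MOP (log2 0.76 ± 0.21, SE; edgeR adjusted p = 0.042). Ifitm2, the third of the family, was level at 127 to 139 CPM (log2 0.04, edgeR adjusted p = 0.64). It is uncertain, because 55.5% of its 31-base words occur in other genes. Bst2 encodes tetherin, which holds budding virions on the cell surface and is also a marker of plasmacytoid dendritic cells. It fell from 62.6, 59.9 and 55.7 CPM in MODP to 46.7, 49.2 and 48.7 CPM in MOP (log2 -0.30 ± 0.07, SE; edgeR adjusted p = 0.012).

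The call for Ifitm3 varied with the libraries used. Of the 6 fits that dropped 1 library, 5 lost it (edgeR adjusted p 0.07 to 0.13), and it was kept where MODP replicate 2 or the WT2 library of both groups was dropped. Paired by replicate number, Ifitm3 had an edgeR adjusted p of 8.3e-05. The call for Bst2 was lost without MOP replicate 1 (edgeR adjusted p = 0.053).

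Among the 9 GTPase genes, 1 rose toward MOP, 2 fell and 6 missed the threshold, where 31.2% of all genes were called. Mx1, a dynamin-like GTPase that traps viral ribonucleoproteins, rose from 7.07, 10.9 and 4.85 CPM in MODP to 23.6, 21.3 and 20.1 CPM in MOP, 2.88-fold (log2 1.52 ± 0.26, SE; edgeR adjusted p = 0.0058), while its neighbour Mx2 was at 1.67 to 4.04 CPM in all libraries (log2 -0.02). C57BL/6 mice are known to carry a defective Mx1 gene, so the reads speak of its transcript only. Ifi47 and Igtp belong to the immunity-related GTPases, which act on vacuoles that hold bacteria or parasites. Ifi47 fell from 44.9, 48.9 and 55.1 CPM to 23.4, 27.9 and 31.9 CPM (log2 -0.84 ± 0.12, SE; edgeR adjusted p = 0.002), with every MOP library below every MODP library. Igtp fell from 12.2, 14.2 and 14.2 CPM to 10.2, 11.3 and 10.0 CPM (log2 -0.37 ± 0.12, SE; edgeR adjusted p = 0.04979), at the edge of the threshold. None of the 6 fits that dropped 1 library called it (edgeR adjusted p 0.055 to 0.14). Irgm1 and Iigp1, of the same family, had log2 fold changes of -0.10 and -0.97, and the guanylate-binding protein genes Gbp2, Gbp3 and Gbp7 of 0.49, -0.14 and 0.10. Of these, Gbp2 was called higher in the fit paired by replicate number (edgeR adjusted p = 0.042) and by limma-voom. Iigp1 rests on 3 to 20 reads a library.

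Ubiquitin and ADP-ribose enzymes held 1 gene that rose, 1 that fell and 3 that did not pass, where 31.2% of all genes were called. Trim30a, a ubiquitin ligase that restrains toll-like receptor signalling, read 81.7, 89.2 and 79.4 CPM in MODP and 103, 109 and 106 CPM in MOP (log2 0.35 ± 0.06, SE; edgeR adjusted p = 0.0043). The groups were far apart relative to their spread, at a fold of 1.27. Dtx3l, a ubiquitin ligase that pairs with Parp9, read 51.5, 66.7 and 61.0 CPM in MODP and 46.2, 45.7 and 50.1 CPM in MOP (log2 -0.34 ± 0.10, SE; edgeR adjusted p = 0.032). Parp9 itself, which shares a promoter region with Dtx3l, was at 27.9 to 36.4 CPM in all libraries, with a log2 fold change of 0.00; exons of the pair overlap on opposite strands over 8% of the exon bases of Dtx3l, and the strand setting of the counting is not known. The call for Dtx3l was kept where MODP replicate 1 was dropped and lost where any other library was (edgeR adjusted p 0.056 to 0.11). Trim25, which activates the RNA sensor RIG-I, and Parp14 stood at log2 0.08 and 0.24, and Parp14 was called higher in the fit paired by replicate number (edgeR adjusted p = 0.023).

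The Ifi200 genes encode proteins with pyrin and DNA-binding domains, several of which sense DNA. Ifi211 had the highest log2 fold change of the members: 2.71, 3.29 and 2.67 CPM in MODP against 9.87, 11.3 and 9.25 CPM in MOP, 3.52-fold (log2 1.81 ± 0.18, SE; edgeR adjusted p = 3.9e-04). Ifi204 read 4.28, 8.09 and 4.01 CPM in MODP and 12.2, 17.2 and 12.7 CPM in MOP (log2 1.38 ± 0.29, SE; edgeR adjusted p = 0.0099). For both, the lowest MOP library was above the highest MODP library. Ifi203, the most abundant of the 3, was level at 79.1 to 94.1 CPM (log2 0.09). These genes are close copies of each other: 78.9% of the 31-base words of Ifi211 and 46% of those of Ifi204 occur in other genes, 49.5% of the former in Ifi205, so the counts may be divided between copies and Ifi211 in particular is uncertain.

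In the remaining roles, edgeR's unpaired fit on all 6 libraries and DESeq2 made no call between the populations. Of all genes, they called 31.2% and 29.5%. Paired by replicate number, edgeR called Zbp1 higher (adjusted p = 0.011) and Ifi27 and Ifi44 lower (adjusted p = 2.5e-04 and 0.019). In addition, limma-voom called Zbp1, and without MODP replicate 2 edgeR called Usp18 and Zbp1. Of all genes, these 3 fits called 41.0%, 32.4% and 36.7%. Usp18, which removes ISG15 from proteins and blocks interferon receptor signalling, read 2.96, 5.64 and 2.39 CPM in MODP and 4.71, 6.40 and 4.02 CPM in MOP (edgeR adjusted p = 0.33). Among the sensors, Ifih1, which encodes MDA5, was at 26.9, 37.5 and 29.4 CPM in MODP and 24.1, 36.1 and 26.5 CPM in MOP (edgeR adjusted p = 0.7), and Ddx58 (RIG-I), Dhx58 (LGP2) and Zbp1 had log2 fold changes of -0.04, 0.18 and 0.81. At an unadjusted p of 0.05, edgeR's unpaired fit found 1 sensor gene, 0 of the ISG15 genes and 0 of the other interferon-induced genes. The share of all genes at this unadjusted p is not given here, so these counts have no background. In that last group Ifi27, a mitochondrial and nuclear membrane protein, read 20.5, 42.6 and 29.2 CPM in MODP and 12.6, 26.6 and 16.8 CPM in MOP (edgeR adjusted p = 0.24), and Ifi35, Ifi44, Rtp4 and Xaf1 had log2 fold changes of 0.05, -1.08, -0.13 and 0.03.

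Other cell types' markers moved with the population as well. CPM summed over the 7 monocyte and macrophage markers was 2172.0 to 3586.2 in MODP and 6400.4 to 7134.6 in MOP, and that over 6 basophil and mast cell markers, 5 of them higher in MOP, was 509 to 1074.2 and 3092.0 to 4916.4. That over 7 conventional dendritic cell markers, 2 of them higher, was 68.2 to 252 and 206 to 270, and that over 6 erythroid and megakaryocyte markers, 3 of them higher, 113 to 388 and 336 to 407. The sum over 7 T and NK cell markers, 5 of them lower, was 219 to 275 in MODP and 66.0 to 105 in MOP. Nkg7 alone made up 204 to 240 CPM of it in MODP and 65.0 to 99.3 in MOP. Each of the other T and NK markers averaged at most 5.24 CPM in MODP. The plasmacytoid dendritic cell sum, over 5 markers other than Bst2, was 93.0 to 118 and 59.5 to 75.3. Of its 4 tested markers, 2 were lower, and Tcf4 made up 80.0 to 94.0 and 52.5 to 60.4 CPM. Of the markers in these lists, only Klk1 had a library at 0, MOP replicate 3. The part of these cells in the members' differences was not tested, and in bulk RNA fewer cells of a type and less RNA per cell cannot be told apart.

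**Figure D2:**
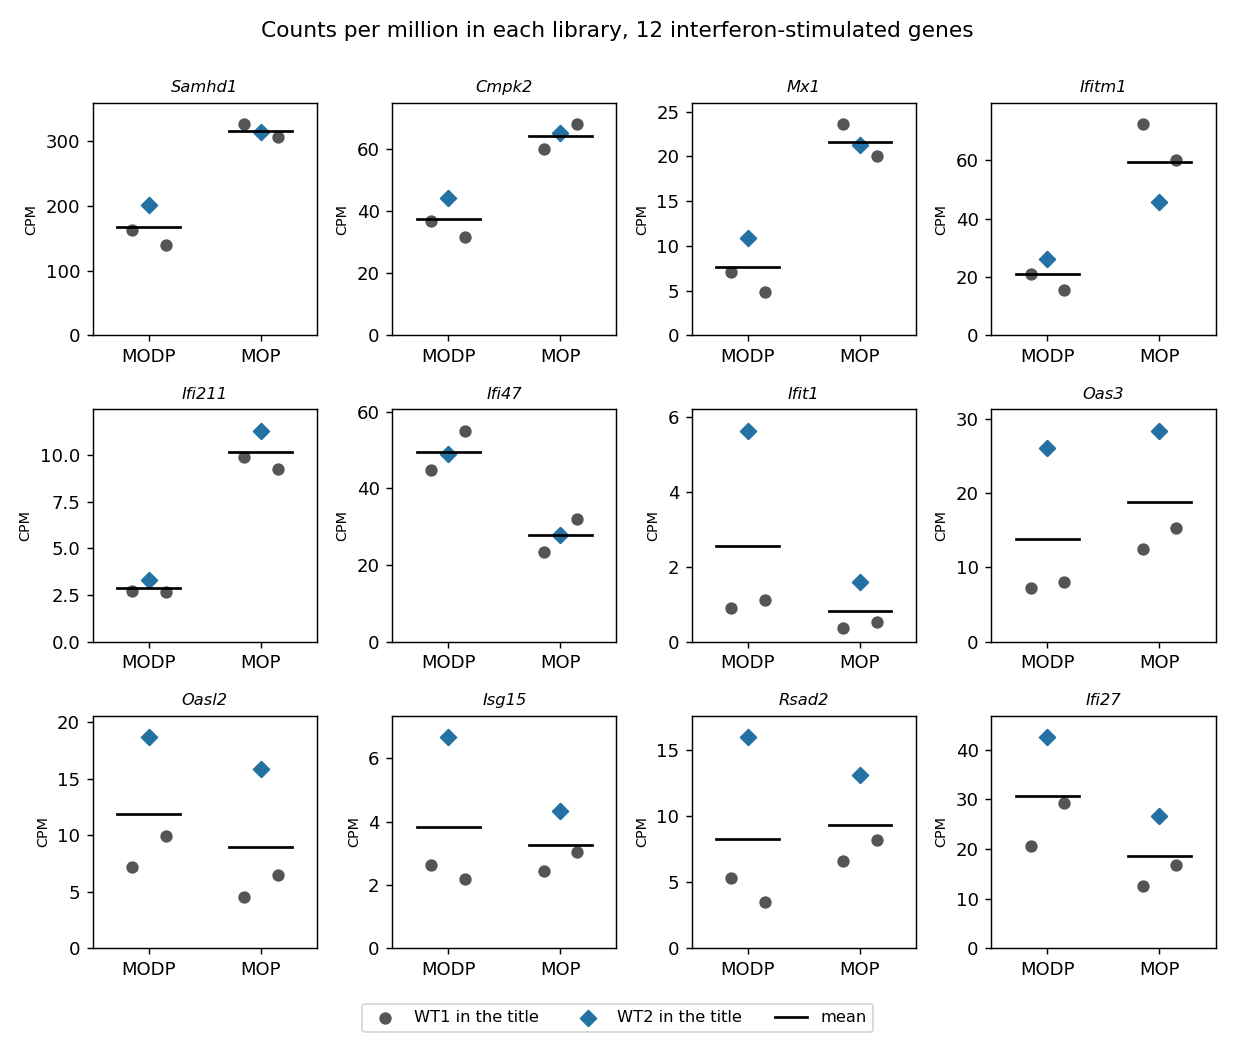
CPM of 12 members in each library, by population, with grey circles for libraries titled WT1, blue diamonds for those titled WT2 and a black line for the mean of 3; every axis starts at 0. Samhd1, Cmpk2, Mx1, Ifitm1 and Ifi211 separate MOP above MODP and Ifi47 the reverse, while Ifit1, Oas3, Oasl2, Isg15, Rsad2 and Ifi27 have the WT2 library highest in each population.

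A further contrast set the libraries titled WT2 against those titled WT1. With the group kept in the fit, edgeR called 5 of the 45 members higher in the 2 WT2 libraries than in the 4 WT1 libraries and 0 lower, where 1.34% of all genes tested were higher and 0.0934% lower. The share of members called was 11.1%, against 1.43% of all genes. The log2 fold change, WT2 minus WT1, was above 0 for 40 of the 45 members, with a median of 0.29 and a range from -0.09 to 2.22. At an unadjusted p of 0.05, edgeR found 22 members higher and 0 lower, DESeq2 19 and 0, and limma-voom 24 and 0. After adjustment DESeq2 called 8 higher and limma-voom 7, and both called 0 lower. The share of all genes at the unadjusted p, and by these 2 other tools, is not given here, so these counts have no background. Of the 45 members, 34 (75.6%) had their highest value in a WT2 library, against 32.8% of all genes. In 20 members both WT2 libraries were above all 4 others, which held for 8.32% of all genes. Within each group, WT2 was above both WT1 libraries for 29 members, against 19.1% of all genes, and below both for 1, against 17.5%. WT2 is 1 library in each group, so the comparison is of 2 libraries with 4. Same-numbered libraries of MODP and MOP deviated together, so these are 1 pair against 2 pairs, while the fit takes the 6 libraries as independent, and its p-values may be too small.

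The genes called were Oas3, Ifit1, Oasl2, Ifitm3 and Ifih1. Ifit1 had 0.904, 5.64 and 1.12 CPM in MODP and 0.368, 1.60 and 0.531 CPM in MOP, from 11, 60 and 16 and 5, 25 and 7 reads. Replicate 2 was 5.56 times the mean of the other 2 libraries in MODP and 3.56 times in MOP, a log2 fold change of 2.22 ± 0.30 (SE; edgeR adjusted p = 0.019). Oas3 read 7.24, 26.0 and 8.01 CPM in MODP and 12.5, 28.4 and 15.3 CPM in MOP (log2 1.38 ± 0.17, SE; edgeR adjusted p = 0.017). Oasl2, an Oas-like gene, read 7.15, 18.7 and 9.91 CPM and 4.49, 15.9 and 6.45 CPM (log2 1.33 ± 0.19, SE; edgeR adjusted p = 0.021). In all 3 genes both WT2 libraries were above the 4 others. For Ifitm3 and Ifih1, whose values stand above, the log2 fold changes were 0.50 ± 0.07 and 0.47 ± 0.09 (SE; edgeR adjusted p = 0.022 and 0.043).

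Other classical members had the same shape without passing the adjusted test. Isg15, the ubiquitin-like modifier, read 2.63, 6.68 and 2.18 CPM in MODP and 2.43, 4.35 and 3.03 CPM in MOP, a log2 fold change of 1.08 ± 0.25 (SE; edgeR adjusted p = 0.087). Oas2 read 4.69, 14.7 and 5.76 CPM and 2.58, 15.2 and 7.43 CPM (log2 1.55 ± 0.35, SE; edgeR adjusted p = 0.12). Rsad2, Rtp4, Ifi44, Ifi27, Oasl1 and Usp18 had log2 fold changes of 1.33, 1.08, 1.34, 0.81, 0.84 and 0.79, with edgeR adjusted p from 0.063 to 0.17. The 8 genes whose population calls were kept in every alternative did not pass this test. Their log2 values, WT2 minus WT1, were 0.20 for Samhd1, 0.19 for Cmpk2, -0.05 for Ifitm1 and 0.34 for Mx1. Those of Ifi47, Trim30a, Ifi204 and Ifi211 were -0.01, 0.10, 0.67 and 0.26. Of the 8 genes, Trim30a, Ifi204 and Ifi211 also had their highest value within each group in replicate 2. Ifi204 came nearest to the threshold (edgeR adjusted p = 0.082).

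The sums of some mature cell markers moved with the WT number too. CPM summed over the 8 mature neutrophil markers came to 3366.1, 15777.0 and 2044.6 in MODP and 2628.3, 11020.0 and 4680.5 in MOP. None of these genes passed edgeR's test for WT2 against WT1 (adjusted p 0.18 to 0.34), but all had log2 fold changes above 0. S100a8, S100a9, Ltf, Camp and Ngp had 2.02, 2.15, 2.12, 2.18 and 2.11, Retnlg and Mmp8 had 1.91 and 1.72, and Cxcr2 had the smallest. The unadjusted p of edgeR's test ran from 0.011 for Camp to 0.06 for Cxcr2. The sums over 7 B lineage markers, 3 of them higher in WT2, were 63.3, 129 and 42.8 in MODP and 38.4, 77.7 and 47.6 in MOP. Those over 7 T and NK cell markers, 2 of them higher in WT2, were 219, 275 and 248 and 66.0, 105 and 94.4. Nkg7, which did not pass, made up 204, 237 and 240 CPM of these in MODP and 65.0, 99.3 and 92.3 in MOP. The sums over 7 conventional dendritic cell markers, none of which passed, were 112, 252 and 68.2 and 206, 270 and 212. Most of each came from Cd74 and H2-Ab1, with log2 fold changes, WT2 minus WT1, of 1.34 and 1.03. Those of Clec9a, Zbtb46 and Itgax were -0.80, -0.11 and -0.04, and those of Xcr1 and Cd209a 0.06 and 0.37. The sums over 6 erythroid and megakaryocyte markers, 1 of them higher in WT2, were 162, 388 and 113 and 394, 407 and 336. Those over the 5 plasmacytoid dendritic cell markers were 114, 118 and 93.0 and 63.4, 75.3 and 59.5. Of 4 tested, 1, Ly6d, was higher in WT2 (log2 1.70, edgeR adjusted p = 0.028), while Tcf4, most of each sum, had log2 0.02. No marker of the other lists passed. Basophil and mast cell sums were 547, 1074.2 and 509 and 4014.3, 3092.0 and 4916.4. Monocyte and macrophage sums were 2498.7, 3586.2 and 2172.0 and 7134.6, 6850.1 and 6400.4. Early progenitor sums were 848, 800 and 936 and 319, 331 and 361. Of the markers of all these lists, Klk1 of the plasmacytoid list was at 0 in MOP replicate 3, and the others were above 0 in every library. Their part in the WT2 values of the interferon-stimulated genes was not tested.

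The count of WT2 calls changed with the library dropped. The share of all genes called for WT2 in these fits is not given here, so the counts have no background. Without MODP replicate 2, WT2 is the MOP library alone, assumed to vary like the others, and the fit called 0 members higher by edgeR, with 14 at an unadjusted p of 0.05, and 1 lower at that p. Without MODP replicate 1 it called 1, and without MOP replicate 1 it called 2. Dropping any other single library left 5 to 7, and without MOP replicate 2 WT2 is likewise 1 library. The call for Oas3 was lost without MODP replicate 2 or MOP replicate 1 (edgeR adjusted p = 0.17 and 0.063), those for Ifit1 and Ifitm3 without these or MODP replicate 1 (edgeR adjusted p 0.051 to 0.41), that for Oasl2 without MODP replicate 1 or 2 or MOP replicate 2 (edgeR adjusted p 0.057 to 0.18), and that for Ifih1 without any library other than MODP replicate 3 (edgeR adjusted p 0.073 to 0.33).

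**Figure D3:**
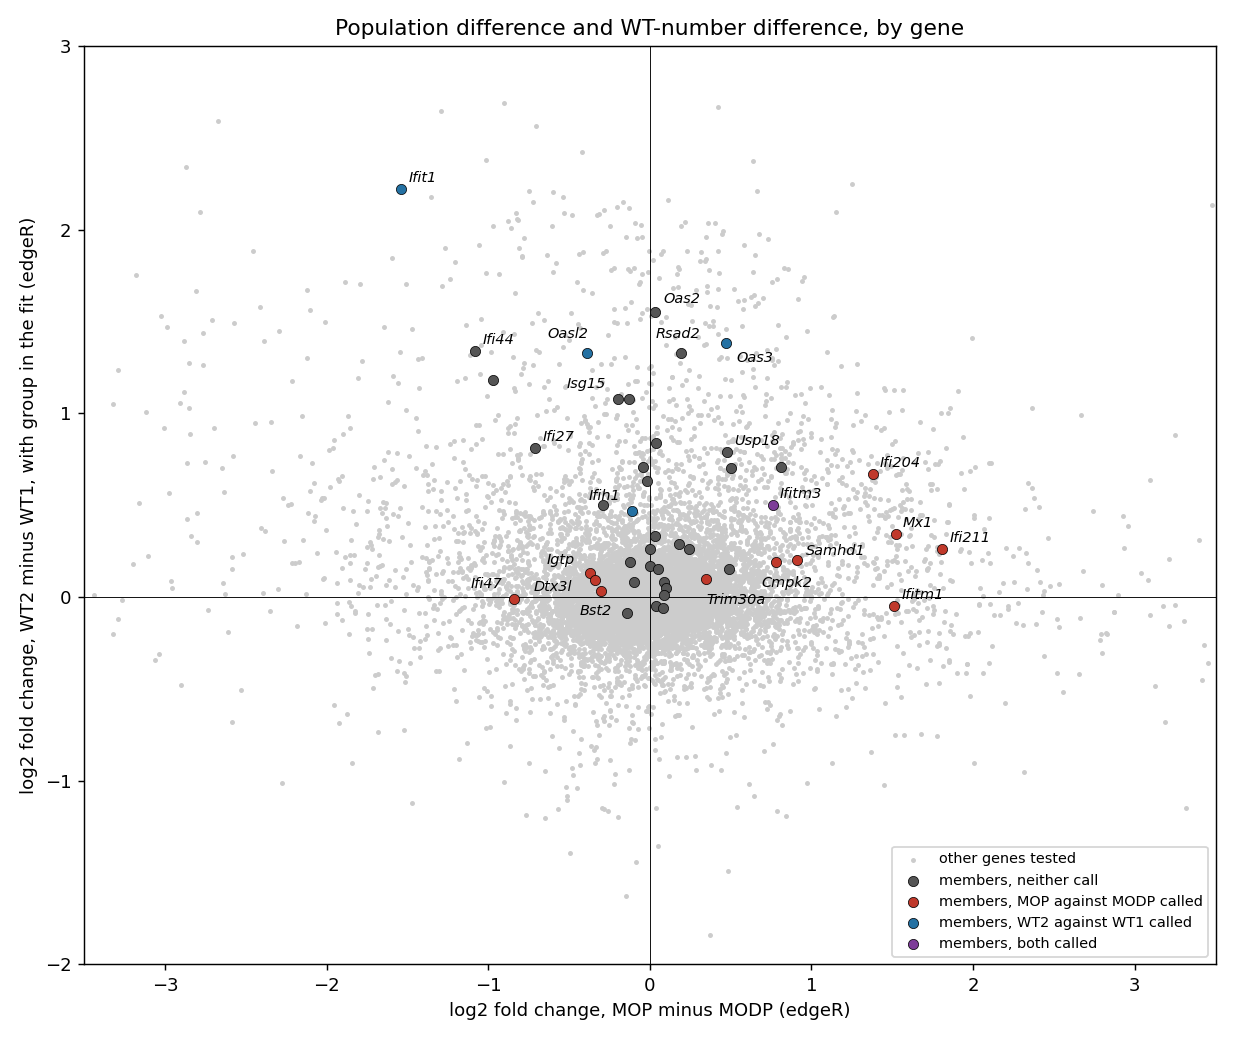
Each point is a tested gene, with the log2 fold change MOP minus MODP on the horizontal axis and WT2 minus WT1, with group in the fit, on the vertical axis; 55 genes lie outside the axes. Members called between the populations alone (red) span -0.84 to 1.81 horizontally and lie from -0.05 to 0.67 vertically, those called for WT2 alone (blue) from 0.47 to 2.22, and Ifitm3 (purple) was called in both.

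Libraries with the same column number deviated together, so population differences were also read within the 3 pairs. MOP was above MODP in all 3 pairs for 19 of the 45 members and below in all 3 for 12, where 32.6% and 33.4% of all genes were. Blocking on that number, edgeR called 13 members higher in MOP and 8 lower, where 21.2% and 19.8% of all genes, 41.0% together, were called. All 12 members called without the block were called with it, and 9 were added. The added higher genes were Zbp1 (log2 0.85, edgeR adjusted p = 0.011), Oas3 (0.56, edgeR adjusted p = 0.034), Isg20 (0.52, edgeR adjusted p = 0.016), Gbp2 (0.49, edgeR adjusted p = 0.042) and Parp14 (0.24, edgeR adjusted p = 0.023). The added lower genes were Ifit1 (-1.53, edgeR adjusted p = 0.0062), Ifi44 (-1.14, edgeR adjusted p = 0.019), Ifi27 (-0.72, edgeR adjusted p = 2.5e-04) and Oasl2 (-0.47, edgeR adjusted p = 0.026). With the WT number of the titles as the block instead, 12 members were higher and 6 lower, where 37.6% of all genes were called. Isg20, Oasl2 and Ifi44 then missed the threshold of edgeR's test. Oas3 and Oasl2, relatives with the same rise in replicate 2, went in opposite directions between the populations within every pair. Without the WT2 library of both groups, 11 members were higher in MOP and 3 lower, where 33.9% of all genes were called.

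Genes that carry the interferon signal were read from a separate list. Of its 34 interferon signalling genes in the count table, 32 were tested, and 12 rose toward MOP, 4 fell and 16 missed the threshold. The share called was 16 of 32, against 31.2% of all genes. Among the ligands, Ifng fell from 19, 22 and 16 reads in MODP to 1, 6 and 1 in MOP (log2 -3.01 ± 0.58, SE, edgeR adjusted p = 0.006). This was in the direction of the T and NK cell markers given above, whose sum was mostly Nkg7. The part of these markers' cells was not tested. Ifnb1 and Ifnk had at most 0.448 CPM in any library and were not tested. Of the receptor genes, Ifngr1 fell from 298 ± 2.21 to 214 ± 13.3 CPM (SD, n = 3; edgeR adjusted p = 8.8e-04), whereas its partner Ifngr2 rose from 44.8 ± 1.86 to 65.0 ± 5.76 CPM (edgeR adjusted p = 0.0021) and Ifnar2, a chain of the type I receptor, from 125 ± 8.28 to 158 ± 17.7 CPM (edgeR adjusted p = 0.023). All 3 kinase genes were higher: the log2 fold change was 1.02 ± 0.09 for Jak2, 0.36 ± 0.06 for Tyk2 and 0.28 ± 0.09 for Jak1 (SE; edgeR adjusted p = 3.8e-04, 0.0029 and 0.042).

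Of the list's signal transducers and regulatory factors, Irf5, Irf9 and Stat2 rose. Their log2 fold changes were 1.53 ± 0.15, 0.59 ± 0.07 and 0.34 ± 0.07 (SE, edgeR adjusted p = 8.8e-04, 7.0e-04 and 0.0078). Irf7, which is itself induced by interferon, had the shape of the Oas genes, at 8.71, 19.8 and 7.31 CPM in MODP and 15.2, 23.6 and 15.1 CPM in MOP, and was called for WT2 against WT1 (log2 0.95 ± 0.16, SE; edgeR adjusted p = 0.033). So was Ifnlr1, the interferon lambda receptor (log2 1.60 ± 0.26, SE; edgeR adjusted p = 0.033). Among adaptors, Myd88 was higher in MOP by log2 0.44, and Traf3 and Tmem173, which encodes STING, were lower by -0.25 and -0.26 (edgeR adjusted p = 0.0071, 0.016 and 0.042). Of the inhibitors, Ptpn6 rose by log2 0.46 and Pias1 by 0.28 (edgeR adjusted p = 0.0016 and 0.048). The smaller of these differences varied with the libraries used: the calls for Jak1, Tmem173 and Tbk1 were kept in at most 1 of the 6 fits that dropped a library (edgeR adjusted p 0.057 to 0.16 elsewhere), and that for Pias1 in 2. Ifnar2 lost its call without MODP replicate 3 or MOP replicate 1 or 3, and Traf3 without MODP replicate 3 or MOP replicate 1, where 2 genes of the list were called lower.

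A further list held 35 interferon-induced genes outside the members. Of 31 tested, Ifi209, Ifi205, Sp100 and Pml were the 4 called higher in MOP, Tgtp2 and Gbp4 the 2 called lower, and 25 missed the threshold, so 19.4% were called, against 31.2% of all genes. Paired by replicate number, 8 were higher and 4 lower, where 41.0% of all genes were called. Ifi209, another Ifi200 gene, rose from 82.5 ± 7.21 to 128 ± 12.5 CPM (SD, n = 3; edgeR adjusted p = 0.0017), though 48.6% of its 31-base words occur in other genes. Tgtp2, an immunity-related GTPase like Ifi47 and Igtp, fell from 3.01 ± 0.339 to 1.48 ± 0.188 CPM (edgeR adjusted p = 0.015), and it is uncertain because 94.7% of its words are shared, nearly all with Tgtp1. For WT2 against WT1, Ddx60, Helz2, Ifi27l2a and Slfn5 were higher, by log2 1.05, 0.42, 1.78 and 1.14 (edgeR adjusted p = 0.015, 0.034, 0.035 and 0.045), 4 of 31 (12.9%) against 1.43% of all genes, and the median over the list was 0.29, as for the members. Between the populations the count of higher genes was 1 without any of MODP replicate 3 and MOP replicates 1, 2 and 3. It was 2 without MODP replicate 1 and 8 without MODP replicate 2. The last of these fits called 36.7% of all genes, and the others 17.6% to 22.5%. The count of lower genes was 0 without MOP replicate 1 or 3, where edgeR found 2 and 3 at an unadjusted p of 0.05. It was 1 without any single MODP library.

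Per length, the members spanned a wide range. On the scale of CPM per kb of annotated exon, averaged over the 6 libraries, Ifitm2, called uncertain above, was highest at 202. It was followed by Ifitm3 at 115, Bst2 at 59.6, Ifitm1 at 36.7 and Samhd1 at 26.4. The lowest tested were Iigp1 at 0.165, Ifi44 at 0.226 and Ifit1 at 0.638. Isg15, among the most strongly induced genes after interferon treatment of many cells, stood at 4.70, below Adar at 16.0 and Trim25 at 18.1. Summed over all members the level was 1440.3, 1745.9 and 1471.1 CPM in MODP and 1772.5, 1920.7 and 1798.5 CPM in MOP, so replicate 2 was highest in each group and every MOP library was above every MODP library; Samhd1 alone made up 140 to 201 of the sum in MODP and 306 to 326 in MOP.

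**Figure D4:**
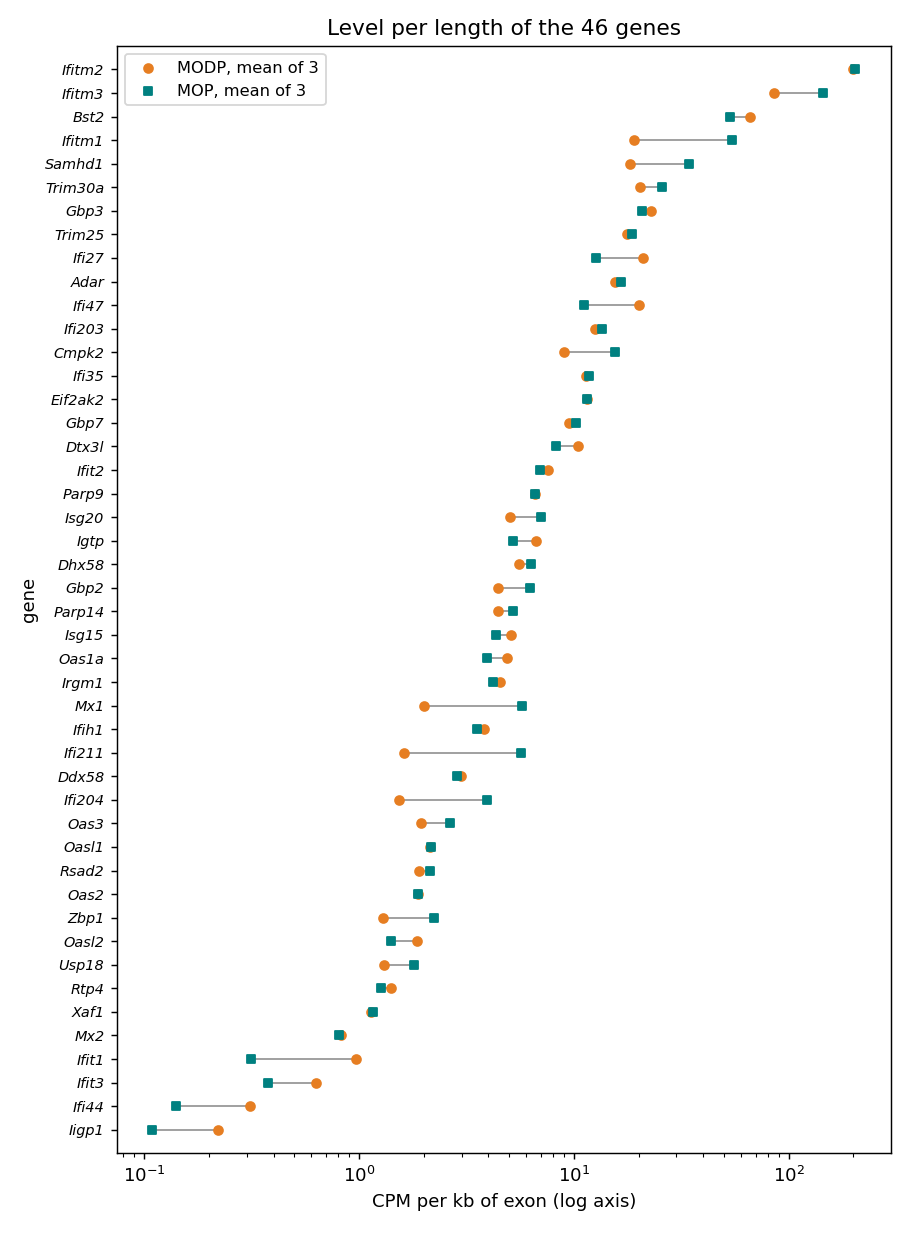
Mean CPM per kb of exon in MODP (orange circles) and MOP (teal squares) for the 46 genes on a log axis, ordered by the mean over all libraries. The membrane genes Ifitm2, Ifitm3 and Bst2 lie at the top and Ifit1, Ifit3, Ifi44 and Iigp1 at the bottom, and the widest gaps with MOP above are those of Ifi211, Mx1, Ifitm1 and Ifi204.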

How the data were processed

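The authors deposited raw read counts per Ensembl gene for 6 libraries, with no normalization, as the whole-number values show. Per the submitters' processing notes, TopHat 1.4 and HTSeq were used; no source used here states the build, annotation or strand setting. Symbols and exon lengths came from GENCODE M21 by identifier (20840 of 22271 matched, 1431 not).

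Columns were mapped to samples by their leading number and P code; the WT number of columns 5 and 6 differs from the titles. Genes were kept by filterByExpr (12850). The test was edgeR's quasi-likelihood test (edgeR 4.0.16, R 4.3.3), TMM scaling, group as the factor, with a threshold of 0.05 on p-values adjusted by Benjamini-Hochberg over the 12850 genes. WT2 against WT1 added the WT number of the title. Alternatives were DESeq2 1.42.0, limma-voom (limma 3.58.1), other scalings and filters, leaving out libraries and blocks. The fit was tested on simulated counts. CPM per kb divides by the exon length of all annotated exons merged; every fold change is edgeR's.

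Same-numbered libraries correlated at 0.58, 0.60 and 0.51 in their deviations from group means (9415 genes with a mean log2 CPM above 3), and other pairs at -0.46 to 0.06; the column numbers were taken as pairs. Within a group, counts of any 2 libraries gave a chi-square per degree of freedom of 7.87 to 37.6, far above sampling noise.

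The members and lists were chosen with earlier results of these data known. Values in every library are given for up to 3 members of each role past the threshold, or the most abundant member, and up to 2 more by the WT2 test; Oasl2, Isg15, Oas2 and Rsad2 were added after their values were seen. Genes with 50% or more of their 31-base words in other genes are called uncertain. Among the erythroid and megakaryocyte markers, Hba-a1 (71.4%) and Hbb-bs (66.9%) pass this limit, so the sums over that list are uncertain too. 1 gene of the signalling list is not reported here by name.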

Additional observations from a re-analysis of the deposited data

How the results depend on the processing

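The calls of 8 members, Samhd1, Cmpk2, Ifitm1, Mx1, Ifi47, Trim30a, Ifi204 and Ifi211, were kept under all 15 alternatives run for the population comparison, and no called direction turned. Leaving out 1 library moved the count of members higher in MOP between 7 and 14 and of those lower between 1 and 3; for all genes the ranges were 1281 to 2524 and 1036 to 2275, for the signalling list 8 to 12 and 2 to 3, and for the other interferon-induced genes 1 to 8 and 0 to 2. The replicate block gave 13 members higher and 8 lower, and 8 and 4 in the other interferon-induced list, where 41.0% of all genes were called. The block by title number gave 12 members higher and 6 lower, without calls for Isg20, Oasl2 and Ifi44, and 8 higher in that list. It called 37.6% of all genes. For WT2 against WT1, the members called higher were 8 by DESeq2, 16 where all genes were tested and 0 to 7 with 1 library dropped. The share of all genes called for WT2 in these alternatives is not given here. The cause of these changes was not tested, beyond fewer samples. Upper-quartile scaling moved the median of all genes to -0.06. At 10.6 to 15.6 reads per CPM, Ifit1, Ifit3, Ifi44 and Iigp1 rest on few reads.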
